A study of Mus musculus with 6 samples.

Results

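The B-cell receptor complex and its coreceptors were followed through 9 genes: Cd79a, Cd79b, Cr2, Cd81, Cd22, Ms4a1, Lyn, Syk and Btk. The members were a given list, found in the expression table by matching its Ensembl identifiers to GENCODE vM21 symbols. All 9 were among the 46983 genes listed and among the 13312 genes with a mean of at least 0.5 FPKM (fragments assigned to a gene, scaled to its transcript length and to the library's depth) that entered the test. Bulk RNA sequencing covered 6 libraries of mouse splenic B cells, 3 labelled WT and 3 labelled Hif1a KO, numbered 1 to 3 in each group. All cells had been cultured for 3 days under conditions for switching to IgA, in medium that held LPS (5 μg/ml) together with TGF-β (10 ng/ml), BAFF (10 ng/ml) and IL-5 (10 ng/ml).

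In the study's methods the mice were on the C57BL/6 background. Hif1a KO mice carried floxed Hif1a alleles (Hif1a fl/fl) and cre expressed from the Mb1 locus, which is Cd79a, so the deletion was directed to B-lineage cells. The WT animals were littermates that either carried cre with a single floxed allele or carried floxed alleles without cre. Which of these kinds gave each WT library was not stated in the labels, nor were the age or sex of the donors. The labels also do not say whether libraries with different numbers came from different animals, although sex-linked genes, given below, set the donor of Hif1a KO replicate 2 apart. The p-values thus measure the spread between these libraries, which may be partly technical.

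The B-cell receptor is a surface immunoglobulin held by a heterodimer of Igα (Cd79a) and Igβ (Cd79b), whose cytoplasmic tails carry immunoreceptor tyrosine-based activation motifs (ITAMs). When antigen is bound, the Src-family kinase Lyn phosphorylates the ITAM tyrosines, the kinase Syk docks on them, and Btk with Syk activates phospholipase Cγ2. A coreceptor that holds CD21 (Cr2) and CD81 lowers the threshold of this signal, whereas CD22 carries inhibitory motifs (ITIMs) that recruit the phosphatase SHP-1. CD20, the product of Ms4a1, is a membrane protein of mature B cells. In the Mb1-cre line the cre sequence was placed into Cd79a, and the allele that carries it does not make Igα.

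The coding sequences of the motifs on which the complex turns are shown so that the chains can be compared. They were read from GENCODE vM21 transcripts (GRCm38), 5′ to 3′ on the coding strand, with the tyrosine codons in capitals. The Cd79a ITAM lies at chr7:24901296-24901469 (plus strand, exons 4 and 5), and the Cd79b ITAM at chr11:106311867-106312012 (minus strand, exons 5 and 6), each interval including an intron.
Cd79a ITAM: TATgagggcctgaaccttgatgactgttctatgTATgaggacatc
Cd79b ITAM: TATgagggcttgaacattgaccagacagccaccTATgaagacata
The motifs have 15 codons each, and they share 31 of 45 bases and 10 of 15 encoded residues.

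Cd22 encodes several short motifs of the inhibitory kind. They follow in order along the protein, from chr7:30867494-30867511, chr7:30867033-30867050, chr7:30866600-30866617 and chr7:30866540-30866557 (minus strand, exons 12, 13, 14 and 14), again with the tyrosine codon in capitals.
Cd22 motif at tyrosine 783: gttagtTATgccatcttg
Cd22 motif at tyrosine 817: gtcactTACtcggtgata
Cd22 motif at tyrosine 843: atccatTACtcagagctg
Cd22 motif at tyrosine 863: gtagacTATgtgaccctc
Positions count codons from the start codon of the longest Cd22 transcript.

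Library depth ran from 25030210 to 37222477 reads, as recovered from the FPKM values. The B-cell label was checked against 8 markers, all of which were expressed, with a summed level of 6867 to 7421 FPKM in WT and 6602 to 7788 FPKM in Hif1a KO. T-cell markers summed to 4.33 to 7.53 FPKM in WT and 5.17 to 7.66 FPKM in Hif1a KO, and all 4 NK-cell markers were under 1 FPKM in every library. Hif1a itself was at 36.5, 49.8 and 45.8 FPKM in WT and at 46.5, 45.6 and 52.8 FPKM in Hif1a KO, and whole-gene values cannot show whether the floxed part was lost. A pair of libraries stood apart from the others of their own group. WT replicate 1 was alone in its group in having low erythroid markers (0.756 against 12.8 and 9.38 FPKM) and low Lyz2, a myeloid lysozyme (6.18 against 58.3 and 26.2 FPKM), and its plasma-cell markers were higher (787.1 against 482.1 and 444.3 FPKM). In Hif1a KO the erythroid markers summed to 0.803 to 1.487 FPKM and the plasma-cell markers to 560.4 to 995.8 FPKM. Lyz2 was at 0.60, 2.23 and 3.70 FPKM there. On these markers WT replicate 1 thus lay with or near the Hif1a KO libraries, and WT replicates 2 and 3 differed from both. Neutrophil markers summed to 31.4 FPKM in WT replicate 1 and to at most 0.521 FPKM elsewhere. The Y-linked gene Ddx3y was at 43.3 FPKM in Hif1a KO replicate 2 and at or near 0 in the other libraries, while Xist was at 0.014 FPKM there and at 167.0 to 278.7 FPKM in the others. Hif1a KO replicate 2 thus had the pattern of male cells and the other libraries that of female cells. Its donor therefore differed from those of Hif1a KO replicates 1 and 3. The part of donor sex in the member values was not tested. Results are given with and without WT replicate 1 and Hif1a KO replicate 2.

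No member differed between the groups at an adjusted p under 0.05 when all 6 libraries were used, and the same held for all genes tested (0%), with limma and Benjamini-Hochberg adjustment. At an unadjusted p under 0.05, 2 of the 9 members differed, Syk with a higher and Cd81 with a lower mean in Hif1a KO, against 6.98% of all genes tested (2.48% higher and 4.5% lower). The test of voom-transformed reads also called 0 genes, with 829 at an unadjusted p under 0.05 against 929 by limma on FPKM. For each of the 9 members the ranges of the groups overlapped, where 10.1% of all genes had ranges that did not. The sign of the difference was positive for 6 members and negative for 3, beside 5604 positive and 7708 negative among all genes tested. The median log2 fold change (Hif1a KO over WT, on log2(FPKM + 1)) of the members was 0.17 beside -0.03 for all genes. Without WT replicate 1, 4 members passed: Cd79b, Lyn and Syk were higher and Cd81 was lower in Hif1a KO, while 9.4% of all genes passed (3.64% higher and 5.75% lower). For each of these 4 members WT replicate 1 lay inside the Hif1a KO range. Leaving it out therefore widened the difference and narrowed the WT spread. No member passed when any other single library was left out. In bulk samples, fewer cells of a type and less RNA per cell cannot be told apart.

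**Figure D1:**
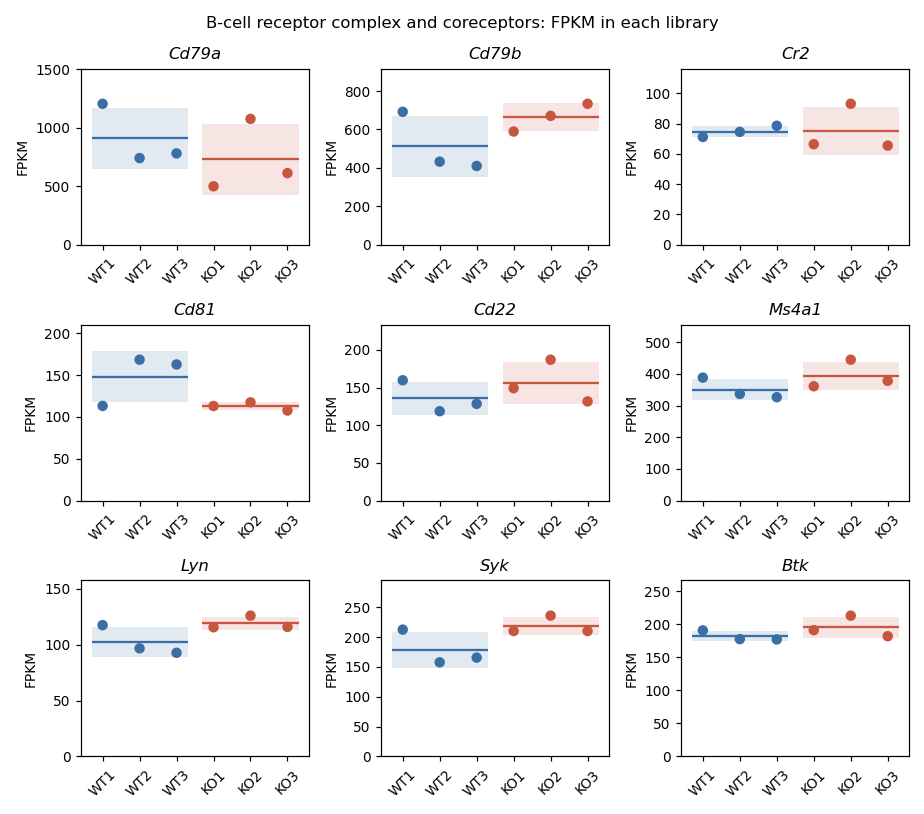
FPKM of each member in the 6 libraries (y axes linear from 0, 1 panel per gene), with WT in blue and Hif1a KO in red, a point per library, a line at each group's mean and a shaded band of 1 SD to either side. Hif1a KO replicates 1 and 3 hold the lowest Cd79a values (498.0 and 610.7 FPKM), whereas replicate 2 (1074 FPKM) lies among WT.

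The members were among the abundant transcripts of these cells. On the per-length FPKM scale the mean over all libraries was 817.3 for Cd79a, 588.2 for Cd79b, 372.7 for Ms4a1, 198.7 for Syk, 188.3 for Btk, 145.7 for Cd22, 130.5 for Cd81, 110.7 for Lyn and 74.9 for Cr2. These levels placed Cd79a at percentile 99.1 and Cr2 at percentile 86.7 of all genes tested. Of neighbours in this order, only Ms4a1 and Syk had ranges over the 6 libraries that did not overlap, and the ranges of the other neighbours overlapped. Within libraries, Ms4a1 was above Syk, Cd79b above Ms4a1, Btk above Cd22 and Lyn above Cr2 in 6 of 6, but Cd79a was above Cd79b in 4 of 6 and Cd81 above Lyn in 2 of 6.

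The order between genes also depends on the transcript length used for the FPKM. The lengths recovered from the values matched, within 1 base, the mean over each gene's annotated transcripts for 6 members (Cd79a, Cd79b, Ms4a1, Lyn, Syk and Btk). For genes with many short transcripts this length is below the longest coding sequence: 1866 against 4227 bases for Cr2, 1901 against 2607 bases for Cd22 and 1490 against 1980 bases for Btk. The levels of these genes relative to the others therefore depend on that choice, whereas differences between libraries do not.

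Among the antigen receptor chains, Cd79a varied most. Cd79a, which encodes Igα (ENSMUSG00000003379, chr7:24897381-24902197, plus strand), was at 1203, 739.1 and 779.0 FPKM in WT replicates 1 to 3 and at 498.0, 1074 and 610.7 FPKM in Hif1a KO replicates 1 to 3. The lowest values belonged to Hif1a KO replicates 1 and 3 and the highest to WT replicate 1, with Hif1a KO replicate 2 second highest, so the groups overlapped. Means were 907.0 ± 257.0 FPKM in WT and 727.7 ± 305.4 FPKM in Hif1a KO (SD, n = 3 each), and the log2 fold change was -0.36 (SE 0.31, 95% interval -1.095 to 0.374, limma adjusted p = 0.695). Each value rested on 18162 to 65237 reads, so counting error was small beside the spread between libraries. The log2 fold change was -0.14 without WT replicate 1, -0.68 without Hif1a KO replicate 2 and -0.46 without both (limma adjusted p = 0.794, 0.683 and 0.0655).

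Cd79b, which encodes Igβ (ENSMUSG00000040592, chr11:106311341-106314762, minus strand), had the opposite sign. It was at 692.3, 432.3 and 409.9 FPKM in WT and at 589.4, 671.0 and 734.1 FPKM in Hif1a KO. WT replicates 2 and 3 were the lowest, and WT replicate 1 lay inside the Hif1a KO range. The means of 511.5 ± 157.0 and 664.9 ± 72.5 FPKM (SD, n = 3 each) gave a log2 fold change of 0.41 (SE 0.20, 95% interval -0.069 to 0.896, limma adjusted p = 0.626). Leaving out WT replicate 1 gave 0.65 (SE 0.10, limma adjusted p = 0.0188), and leaving out Hif1a KO replicate 2 as well gave 0.64 (limma adjusted p = 0.0363).

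Because Cd79a and Cd79b encode the chains of a single heterodimer, their ratio was compared within libraries, where scaling between libraries cancels. The Cd79a to Cd79b ratio of FPKM values was 1.737, 1.71 and 1.901 in WT and 0.845, 1.601 and 0.832 in Hif1a KO. Every Hif1a KO library lay below every WT library, but replicate 2 was close to WT, and Cd79a exceeded Cd79b in all WT libraries and in that Hif1a KO library only. The mean ratio was 1.782 ± 0.103 in WT and 1.093 ± 0.44 in Hif1a KO (SD, n = 3 each). The mean log2 ratio differed by -0.776 (two-sided exact permutation test, p = 0.1, which is the smallest p that 3 against 3 libraries allow). Without Hif1a KO replicate 2 the difference was -1.087, and the exact permutation test gave p = 0.1, again the smallest possible. Leaving out WT replicate 1 gave -0.793, with an exact permutation p = 0.2 where 0.1 was possible, and leaving out WT replicate 2 or 3 gave -0.805 or -0.729, also with an exact permutation p = 0.2. The difference was -1.104 without WT replicate 1 and Hif1a KO replicate 2 (exact permutation p = 0.333, the smallest possible). The level of the ratio depends on the lengths used, 1457 bases for Cd79a and 1313 bases for Cd79b, which were the same in every library.

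**Figure D2:**
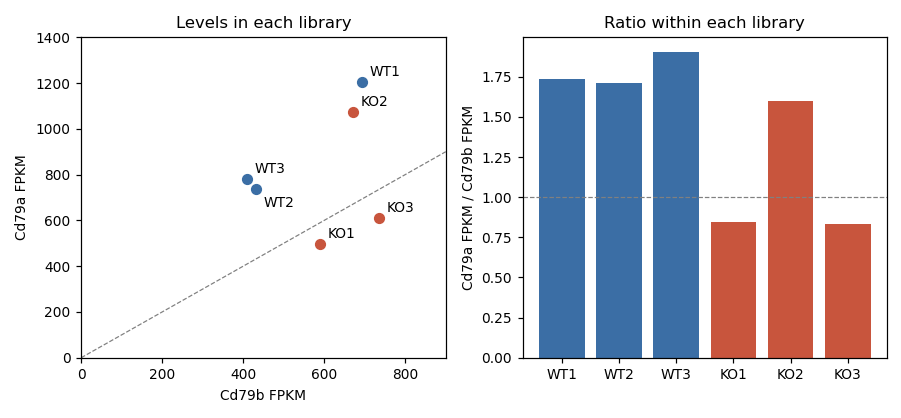
Left, FPKM of Cd79a (y axis) against Cd79b (x axis), a point per library with WT in blue and Hif1a KO in red and a dashed line where both are equal; right, bars of the Cd79a to Cd79b ratio in each library. The WT ratios lie between 1.71 and 1.901, and Hif1a KO lies at 0.845, 1.601 and 0.832.

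The spread of Cd79a was also seen against the other members. Against the geometric mean of the other members, Cd79a was 6.355, 4.442 and 4.672 times as high in WT and 2.765, 5.101 and 3.378 times as high in Hif1a KO. Hif1a KO replicates 1 and 3 were again the lowest, and replicate 2 lay inside the WT range. The labels do not give the cre status of single libraries, and the part of the cre insertion in the Cd79a values was not tested.

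Since cre was placed into Cd79a, the sequence in front of the gene is shown as the reference has it. The stretch is chr7:24897247-24897380 (plus strand, GRCm38.p6, RefSeq promoter table), 134 bases that precede both the RefSeq and the GENCODE start, and capitals mark CACGC, the reverse complement of the letters GCGTG found in hypoxia response elements.
Cd79a upstream: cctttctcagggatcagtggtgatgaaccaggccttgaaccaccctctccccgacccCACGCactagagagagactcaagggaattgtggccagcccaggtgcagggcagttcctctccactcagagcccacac
The letters GCGTG, searched on both strands of the 250 bases before each start, occurred for 3 of the 6 members in the table (Cd79a, Cd81 and Syk) and in 28.2% of 32851 promoters. Members were counted as genes with a match before any start, whereas the share is over single promoters. Syk had its match only before the downstream start. The related letters ACGTG occurred for none of the 6 members and in 16.6% of all promoters. Also searched were CCCNNGGG (N, any base), found for Cd81 and Cd22 and in 11.8% of promoters, and ATGCAAAT, found for no member and in 1.6%. These matches are a description of letters only.

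By a rule on likeness, the 5 genes whose profile over the 6 libraries lay nearest to that of Cd79a were Narf, Igkv1-133, Ntng2, Grhpr and Gm44349, among 9274 genes with a mean of at least 5 FPKM. The measure was the root mean square difference of centred log2(FPKM + 1) values, which was 0.143 for Narf, 0.225 for Igkv1-133, 0.272 for Ntng2, 0.274 for Grhpr and 0.277 for Gm44349. Cd79a itself varied by 0.438 on the same scale. Narf was at 39.4, 25.1 and 25.8 FPKM in WT and at 12.5, 30.3 and 16.9 FPKM in Hif1a KO, the same order of high and low libraries as Cd79a.

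Neither coreceptor member passed the test with all 6 libraries. Cr2, which encodes the complement receptor CD21 (ENSMUSG00000026616, chr1:195136811-195176716, minus strand), was at 71.2, 74.6 and 78.7 FPKM in WT and at 66.4, 93.2 and 65.5 FPKM in Hif1a KO. The WT libraries lay inside the Hif1a KO range, whose upper end was replicate 2. The log2 fold change was -0.01 (SE 0.14, 95% interval -0.343 to 0.315, limma adjusted p = 0.977). Its sign depended on the scaling, being 0.02 after median-ratio scaling, and without Hif1a KO replicate 2 it was -0.18. In the study's methods, splenic B cells for switching cultures were sorted by intermediate surface CD21, among other markers. The product of Cr2 was thus part of the selection before culture.

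Cd81, which encodes a tetraspanin of the coreceptor (ENSMUSG00000037706, chr7:143052739-143067934, plus strand), was the only coreceptor member with a lower mean at an unadjusted p under 0.05. It was at 113.2, 168.5 and 162.8 FPKM in WT and at 113.1, 117.5 and 107.7 FPKM in Hif1a KO. WT replicates 2 and 3 were high, and WT replicate 1 lay with the Hif1a KO libraries. The means were 148.2 ± 30.4 and 112.8 ± 4.92 FPKM (SD, n = 3 each), and the log2 fold change was -0.37 (SE 0.15, 95% interval -0.726 to -0.013, limma adjusted p = 0.626). The log2 fold change was -0.55 without WT replicate 1 (SE 0.06, limma adjusted p = 0.00752), and -0.58 without Hif1a KO replicate 2 as well (limma adjusted p = 0.0116).

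The remaining surface members had higher means in Hif1a KO that did not pass the test. Cd22, the inhibitory lectin whose motifs are shown above (ENSMUSG00000030577, chr7:30865402-30880342, minus strand), was at 159.7, 118.6 and 128.4 FPKM in WT and at 149.2, 187.0 and 131.6 FPKM in Hif1a KO. WT replicates 2 and 3 were lowest, and WT replicate 1 was second highest. The log2 fold change of 0.20 (SE 0.16, 95% interval -0.176 to 0.568, limma adjusted p = 0.680) was 0.06 without Hif1a KO replicate 2, which held the highest value. Ms4a1, the gene of CD20 (ENSMUSG00000024673, chr19:11249675-11266241, minus strand), was at 388.4, 336.8 and 326.5 FPKM in WT and at 361.1, 445.0 and 378.3 FPKM in Hif1a KO. Again WT replicate 1 alone reached into the Hif1a KO range, and the log2 fold change was 0.17 (SE 0.11, 95% interval -0.08 to 0.418, limma adjusted p = 0.642). Neither gene passed without WT replicate 1, at 0.32 for Cd22 and 0.25 for Ms4a1 (limma adjusted p = 0.205 and 0.160).

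**Figure D3:**
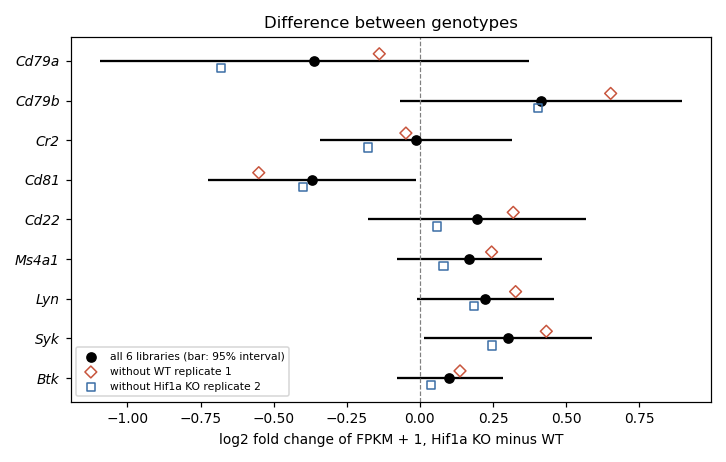
Log2 fold change of each member (Hif1a KO minus WT, log2(FPKM + 1) scale), as black points with 95% intervals from limma for all 6 libraries, red diamonds without WT replicate 1 and blue squares without Hif1a KO replicate 2. Cd81 moves from -0.37 to -0.55 and Cd79b from 0.41 to 0.65 when WT replicate 1 is left out, and Cd79a lies below 0 in all 3 sets.

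For each of the proximal kinases, Hif1a KO replicate 2 was the highest library and WT replicates 2 and 3 were the lowest. Lyn, the kinase that phosphorylates the ITAMs (ENSMUSG00000042228, chr4:3678115-3813122, plus strand), was at 117.5, 96.8 and 92.8 FPKM in WT and at 115.6, 126.0 and 115.9 FPKM in Hif1a KO. WT replicate 1 was second highest, whereas WT replicates 2 and 3 lay under all Hif1a KO libraries. The means of 102.3 ± 13.3 and 119.2 ± 5.93 FPKM (SD, n = 3 each) gave a log2 fold change of 0.22 (SE 0.10, 95% interval -0.01 to 0.459, limma adjusted p = 0.626). It was 0.33 without WT replicate 1 (limma adjusted p = 0.0332), and 0.29 without Hif1a KO replicate 2 as well (limma adjusted p = 0.0435).

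Syk, the kinase that docks on phosphorylated ITAMs (ENSMUSG00000021457, chr13:52583173-52648792, plus strand), was at 212.5, 157.7 and 165.6 FPKM in WT and at 210.1, 235.9 and 210.1 FPKM in Hif1a KO. As for Lyn, WT replicates 2 and 3 were the lowest and WT replicate 1 lay inside the Hif1a KO range. The means were 178.6 ± 29.7 and 218.7 ± 14.9 FPKM (SD, n = 3 each), and the log2 fold change was 0.30 (SE 0.12, 95% interval 0.015 to 0.588, limma adjusted p = 0.626). It was 0.43 without WT replicate 1 and 0.38 without both libraries that stood apart (limma adjusted p = 0.0231 and 0.0242).

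Btk, the Tec-family kinase that acts on phospholipase Cγ2 (ENSMUSG00000031264, chrX:134542336-134583570, minus strand), had the smallest standard error of the members. It was at 190.5, 177.3 and 176.8 FPKM in WT and at 190.9, 212.8 and 181.7 FPKM in Hif1a KO. WT replicate 1 lay inside the Hif1a KO range. The log2 fold change was 0.10 (SE 0.08, 95% interval -0.08 to 0.283, limma adjusted p = 0.674), and it did not pass without WT replicate 1 (0.14, limma adjusted p = 0.296).

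Hif1a KO replicate 2 held the highest value of 6 members: Cr2, Cd22, Ms4a1, Lyn, Syk and Btk. Without WT replicate 1 the groups did not overlap for 7 of 9 members, against 50.5% of all genes. The members with separate ranges were Cd81, lower in Hif1a KO, and Cd79b, Cd22, Ms4a1, Lyn, Syk and Btk, higher in Hif1a KO. The comparison then rests on WT replicates 2 and 3. In these, markers of macrophages and monocytes summed to 169.5 and 119.0 FPKM, against 67.5 to 79.4 FPKM in Hif1a KO and 74.35 FPKM in WT replicate 1, with 5 of the 10 markers at a mean of at least 0.5 FPKM. Dendritic-cell markers summed to 16.2 to 17.9 FPKM in WT and 12.04 to 12.95 FPKM in Hif1a KO. Plasma-cell markers summed to 482.1 and 444.3 FPKM in WT replicates 2 and 3, against 560.4 to 995.8 FPKM in Hif1a KO, and Tnfrsf17 was under 1 FPKM throughout. The plasma-cell markers did not all share a direction. Over all libraries Sdc1 had a lower mean in Hif1a KO (3.45 against 3.89 FPKM in WT), and the others had higher ones. Sdc1, Irf4 and Slamf7 in Hif1a KO overlapped WT replicates 2 and 3. The part of other cells or of the plasma-cell share in the values of Cd79b, Cd81, Lyn and Syk was not tested.

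Other genes of the pathway were taken from 4 lists with 82 genes, of which 80 were tested. None passed with limma and Benjamini-Hochberg adjustment. At an unadjusted p under 0.05, 4 were higher and 3 lower in Hif1a KO, and the groups did not overlap for 7 genes, 4 higher and 3 lower. These are 7 of 80 genes in each case, beside 6.98% and 10.1% of all genes tested. The median log2 fold change over the 80 genes was 0.04, with 48 higher and 32 lower, beside 5604 higher and 7708 lower among all genes tested. With WT replicate 1 left out, 11 of 80 were called higher and 3 lower, beside 3.64% and 5.75% of all genes tested.

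Among the 20 genes listed under surface coreceptors and inhibitory receptors, not all of which need be surface receptors, 12 had a higher and 8 a lower mean in Hif1a KO. Their median log2 fold change was 0.05. Fcrla, an Fc receptor-like protein of B cells, was at 371.1, 198.9 and 196.7 FPKM in WT and at 327.0, 366.1 and 401.6 FPKM in Hif1a KO. WT replicate 1 lay inside the Hif1a KO range, as for Cd79b, and the log2 fold change was 0.57 (SE 0.24, limma adjusted p = 0.626), or 0.88 without that library (limma adjusted p = 0.00718). Lair1, an inhibitory collagen receptor, was low throughout, at 1.31, 1.295 and 1.405 FPKM in WT and at 0.698, 0.718 and 0.534 FPKM in Hif1a KO, with no overlap and a log2 fold change of -0.50 (SE 0.11, limma adjusted p = 0.626). At such levels the 1 added before taking logs shrinks the fold change, and the Lair1 means were 1.338 FPKM in WT and 0.650 FPKM in Hif1a KO. Fcrla, Cd53 and Cd38 were called higher and Tspan33 lower when WT replicate 1 was left out.

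Of 12 further kinases of the Src, Syk and Tec families, 10 were tested, 7 with a higher and 3 with a lower mean. Lck, a Src-family kinase best known from T cells, was at 131.3, 96.2 and 90.1 FPKM in WT and at 136.9, 133.4 and 136.5 FPKM in Hif1a KO, with no overlap (log2 fold change 0.37, SE 0.14, limma adjusted p = 0.626). Of 7 T-cell markers, 6 were under 1 FPKM in every library, and the summed levels, given above, overlapped between the groups. The markers did not share a direction. Cd3e, at 0.134 FPKM or less throughout, Cd3d, Cd4, Cd8a and Trac had lower means in Hif1a KO, and Cd3g and Lat had higher ones. Cd3g was at 0.373, 0.056 and 0.201 FPKM in WT and at 0.902, 0.404 and 0.698 FPKM in Hif1a KO, with no overlap, and was too low to enter the test. The part of T cells in the Lck values was not tested. Lck and Csk, the kinase that inhibits Src-family members, were called higher without WT replicate 1.

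Downstream of the kinases, all 30 adaptors and enzymes were tested, 19 with a higher and 11 with a lower mean. Blnk, the adaptor that Syk phosphorylates, had a log2 fold change of 0.03 (SE 0.06, 95% interval -0.104 to 0.173), and Plcg2, the phospholipase, 0.01 (SE 0.06, 95% interval -0.138 to 0.166). These were the narrowest intervals among the genes named here. Rasgrp1, a diacylglycerol-dependent activator of Ras, was at 30.8, 22.7 and 24.6 FPKM in WT and at 32.4, 32.9 and 34.4 FPKM in Hif1a KO, with no overlap (log2 fold change 0.35, SE 0.11, limma adjusted p = 0.626). Grb2, an adaptor protein, and Pik3r1, the regulatory subunit of phosphoinositide 3-kinase, had log2 fold changes of 0.04 (SE 0.07) and -0.10 (SE 0.09). Pik3cd, Rasgrp1 and Itpr3 were called higher, and none of this list lower, when WT replicate 1 was left out.

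The 20 negative regulators divided evenly, 10 with a higher and 10 with a lower mean. Ptpn6, the gene of the phosphatase SHP-1 that the CD22 motifs recruit, had a log2 fold change of -0.17 (SE 0.11). Dgka, which removes diacylglycerol, had one of 0.43 (SE 0.16), and Nfkbia, the inhibitor of NF-κB, one of -0.28 (SE 0.13), none with a limma adjusted p under 0.626. Without WT replicate 1, Ubash3b, Lax1 and Dgka were called higher and Nfkbia lower.

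**Figure D4:**
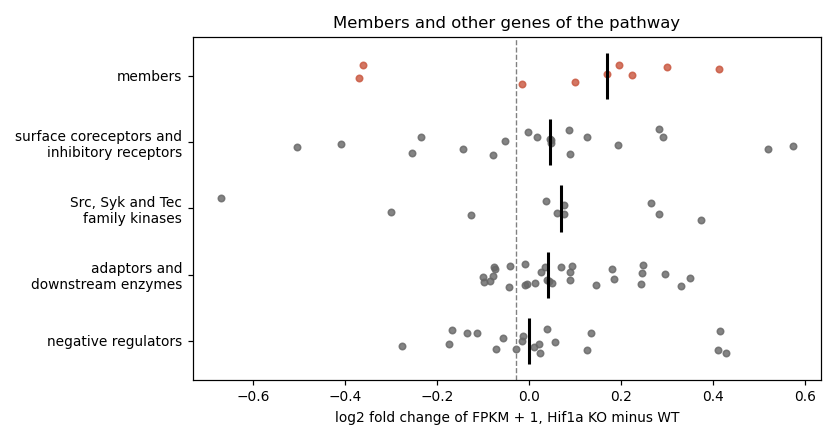
Log2 fold change (Hif1a KO minus WT, log2(FPKM + 1) scale) of the members (red) and of each tested gene in the 4 pathway lists (grey), with a black bar at each list's median and a dashed line at the median of all genes tested, -0.03. The medians lie at 0.17 for the members, 0.05 for the surface receptor list, 0.07 for the kinases, 0.04 for the adaptors and near 0 for the negative regulators.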

How the data were processed

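RNA from splenic B cells was sequenced from SMARTER mRNA libraries, by Novogene according to the study's methods. The notes of the submitters name TopHat 2.0.12, Bowtie 2.2.3, HTSeq 0.6.1 and the builds GRCm38 and mm10. The deposited table gives FPKM per Ensembl gene, a value scaled by the authors to transcript length and library depth. Groups were taken from the labels. Identifiers were matched to GENCODE vM21 (46488 of 46983). For 25716 of 25717 genes a single length returned whole reads in every library (tolerance 0.02 read), from which depth was recovered.

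Genes with a mean of at least 0.5 FPKM (13312) were tested on log2(FPKM + 1) with limma 3.58.1 in R 4.3.3 (eBayes with trend, two-sided), Benjamini-Hochberg adjustment over all of them and a threshold of 0.05. The script was tested on simulated data. Alternatives were median-ratio and quantile scaling, a pseudocount of 0.1, no filter or a minimum of 5 FPKM, no trend, voom on recovered reads, a replicate block and leaving out libraries. The Cd79a to Cd79b ratio was compared by an exact permutation test. The study tested counts with DESeq, which was not used here.

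Members, lists and rules were chosen with earlier results of these data known. All members were named, and from each list the gene with the smallest unadjusted p in each direction, the gene of highest mean, and Blnk and Plcg2. Some genes that this rule names are not reported here. Genes called without WT replicate 1 were named after their values were seen. Sequences came from GENCODE vM21 transcripts and the RefSeq promoter table, which held 6 members (Cd79a, Cr2, Cd81, Cd22, Syk and Btk). Depth intervals cover counting error only.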

Additional observations from a re-analysis of the deposited data

How the results depend on the processing

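Leaving out 1 library, WT replicate 1, decided the calls. Over all genes the number at an adjusted p under 0.05 (limma, Benjamini-Hochberg) ranged from 0 to 1251, the highest without WT replicate 1, with 1 gene called without Hif1a KO replicate 1 and 1259 without WT replicate 1 and Hif1a KO replicate 2, a set chosen after seeing the data. The number of members called ranged from 0 to 4, with 4 without both libraries. The sign of Cr2 turned, to 0.020 with median-ratio scaling and 0.012 with quantile scaling, and it ranged from -0.178 to 0.073 when 1 library was left out, with -0.212 without both. The other 8 members kept their sign. Every other alternative with all 6 libraries called 0 genes, at 616 to 1412 unadjusted. Deviations of same-numbered libraries from their group means had correlations of -0.099, 0.139 and -0.276. With so few libraries per group these values cannot decide whether the numbers mark pairs. The fit with the replicate block called 0 genes, with 694 at an unadjusted p under 0.05, and the Cd79a to Cd79b log2 ratio differed by -0.776 (exact permutation p = 0.25, the smallest possible). With 1 library left out that difference ranged from -1.087 to -0.614. Median-ratio scaling moved the median of all genes from -0.028 to 0.002.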
